A study of Mus musculus with 10 samples.

Results

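Oxidative phosphorylation makes most of the ATP of a neuron: complexes I to IV of the respiratory chain pass electrons to oxygen, all but complex II pump protons, and complex V, the ATP synthase, uses the proton gradient. A small set of its subunits is encoded in mitochondrial DNA, together with the ribosomal and transfer RNAs needed to translate them, and the rest is encoded in the nucleus and imported. Complex II has nuclear subunits only. The genes described here were taken by symbol: every gene starting with mt-, and nuclear genes whose symbols start with Nduf (complex I), Uqcr (complex III), Cox4 to Cox8 (complex IV) or Atp5 (complex V), or that are Sdha, Sdhb, Sdhc or Sdhd (complex II). That gave 138 of the 20483 genes in the table, 37 mitochondrial and 101 nuclear.

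The tissue was the lateral shell (5 libraries) and the medial shell (5 libraries) of the nucleus accumbens, the ventral striatum, of WT mice, and the series concerns how these subregions process reward. Per the labels' protocols, cDNA came from Geo-seq, which amplifies RNA from small captured pieces of tissue, and the libraries from a TruePrep kit. The cells are labelled only as neural, and age, treatment and the animal behind each library are not stated. Replicates are called biological, but nothing says that each came from its own animal, so p-values measure the spread between these libraries, which may be partly technical.

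Values are TPM, transcript abundances per gene length that sum to 1000000 in a library, so sequencing depth is unknown and a large share for some genes lowers all others. Between the regions, 1.48% of the 15596 genes tested were called by limma on log2(TPM + 1) at an adjusted p under 0.05, with 0.385% higher and 1.1% lower in lateral. The median log2 fold change (lateral minus medial) of all of them was -0.21. Lists of marker genes showed a mixture of cells. Summed spiny projection neuron genes stood at 4335 to 6523 TPM in lateral libraries and 4664 to 7120 TPM in medial libraries, and neuron genes at 1306 to 1883 TPM in lateral libraries and 1463 to 2227 TPM in medial libraries. Microglia genes summed to 441 to 688 TPM in lateral libraries and 214 to 441 TPM in medial libraries, with 12 of 12 higher in lateral and 3 called (C1qa, Tmem119 and Ctss). Astrocyte genes summed to 973 to 1300 TPM in lateral libraries and 1072 to 1509 TPM in medial libraries. Lower in lateral were 9 of 12 astrocyte, 7 of 10 neuron and 7 of 13 spiny projection neuron genes. Of all 15596 genes tested, 10712 were lower. Oligodendrocyte genes summed to 352 to 1075 TPM in lateral libraries and 147 to 537 TPM in medial libraries (10 of 13 higher in lateral), endothelial and mural genes to 228 to 886 TPM in lateral libraries and 220 to 411 TPM in medial libraries (7 of 10), and erythrocyte genes to 139 to 4115 TPM in lateral libraries and 80.7 to 2563 TPM in medial libraries (5 of 5). Called lower in lateral were Gad2, from the spiny projection neuron list, and Ntsr2, from the astrocyte list. No gene of these 7 lists was at 0 in every library, and the part of cell composition in the values below was not tested. AY036118, an abundant non-member, was at 1.38 TPM in lateral replicate 5 and 1.42 TPM in medial replicate 2, and at 82500 to 144263 TPM in the other libraries.

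No oxidative phosphorylation gene was called in either direction. Of the 37 mitochondrial genes and 98 nuclear members tested, 0 had a limma adjusted p under 0.05. The smallest was 0.224, for Ndufa1. At an unadjusted p under 0.05 there were 0 mitochondrial and 7 nuclear members, where 15.4% of all genes tested reached it. The values of lateral and medial libraries did not separate for any member on the deposited scale, while they did for 4.25% of all genes tested (0.859% higher and 3.39% lower in lateral). After the mt- genes were removed and each library rescaled, 0 nuclear members were called (1.27% of 16012 genes were, 0.456% higher and 0.818% lower in lateral), 4 were under 0.05 unadjusted (13.7% of all genes), and the regions separated for Cox6a1 alone, higher in lateral (1.09% of all genes separated in that direction, 2.54% in the other and 3.63% in all).

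Mitochondrial genes took 29.6%, 26.3%, 34.5%, 33.8% and 35.3% of all TPM in lateral replicates 1 to 5, against 30.5%, 32.5%, 28.4%, 26.9% and 23.5% in medial replicates 1 to 5. The ranges overlapped, with the highest share in lateral replicate 5 and the lowest in medial replicate 5. Lateral replicate 5 and medial replicate 2 nearly lacked AY036118 (1.38 and 1.42 TPM, against 82500 to 144263 TPM elsewhere). The share that AY036118 takes elsewhere goes to other genes in these libraries, also after rescaling without mt- genes. Which genes take it was not tested. Nuclear protein-coding members took 2.90% in lateral replicate 5, the highest lateral share. They took 2.28% in medial replicate 2, where medial libraries ran from 2.24% to 3.00%. Rankings that rest on lateral replicate 5 carry the limit of its missing AY036118, and shares without AY036118 were not computed. The mean was 31.9 ± 3.85% in lateral and 28.4 ± 3.46% in medial libraries (SD, n = 5 each; means below are given the same way). The 13 protein-coding genes took 17.3 ± 1.35% in lateral and 15.8 ± 1.25% in medial libraries. The 2 ribosomal RNA genes took 10.8 ± 3.92% in lateral and 9.23 ± 3.57% in medial libraries, and the 22 tRNA genes 3.78 ± 2.29% in lateral and 3.30 ± 0.849% in medial libraries. The libraries of the regions overlapped in each class.

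**Figure D1:**
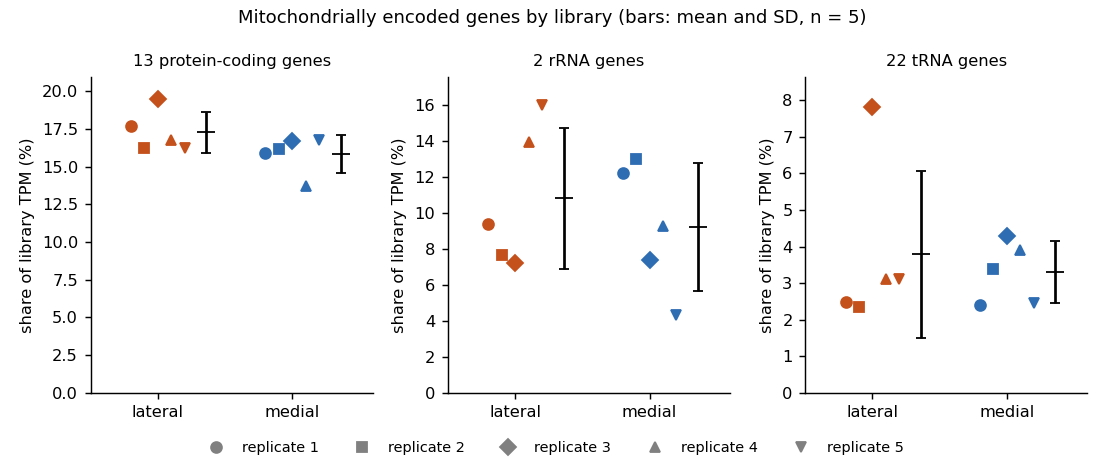
Share of each library's TPM (%, vertical axis) taken by the protein-coding, rRNA and tRNA genes of mitochondrial DNA; each symbol is a library, marked by its replicate number, with lateral left of medial and bars for the mean and SD. Lateral replicate 3 stands apart in tRNA at 7.83%, and the rRNA share runs from 4.31% in medial replicate 5 to 15.98% in lateral replicate 5.

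The 13 mitochondrial mRNAs all had positive log2 fold changes, from 0.04 (mt-Co1) to 0.36 (mt-Nd4l), with a median of 0.14, and none passed (limma adjusted p from 0.411 to 0.953). The median was 0.07 without lateral replicate 3, the high library of several genes below, and 0.06 without medial replicate 4, the low one. Under quantile normalization 7 of them, mt-Atp6, mt-Atp8, mt-Co1, mt-Co2, mt-Nd3, mt-Nd4 and mt-Nd5, had negative values, so the common sign depended on the scaling. The most abundant was mt-Co1, the catalytic subunit of cytochrome c oxidase, at 27594 ± 2167 TPM in lateral libraries and 26898 ± 1475 TPM in medial libraries. Its sister subunits were at 15172 ± 973 TPM in lateral libraries and 14312 ± 929 TPM in medial libraries for mt-Co2, and at 23485 ± 1576 TPM in lateral libraries and 21081 ± 2168 TPM in medial libraries for mt-Co3. Both had overlapping regions. Cytochrome b of complex III, mt-Cytb, was at 17685 ± 2559 TPM in lateral libraries and 16782 ± 3424 TPM in medial libraries.

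For complex V, the proton channel gene mt-Atp6 was at 5885 ± 352 TPM in lateral libraries and 5342 ± 564 TPM in medial libraries. Its partner mt-Atp8 was at 6937 ± 961 TPM in lateral libraries and 6649 ± 955 TPM in medial libraries. These genes overlap on the same strand, as do mt-Nd4l and mt-Nd4, so how reads were divided between them is uncertain. Log2 fold changes were 0.14 (95% interval -0.19 to 0.48) for mt-Atp6 and 0.06 (-0.32 to 0.44) for mt-Atp8.

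The complex I mRNAs of mitochondrial DNA encode the membrane arm that pumps protons. mt-Nd4l, the highest in fold change, stood at 8558, 9058, 13275, 7851 and 7551 TPM in lateral replicates 1 to 5, against 7910, 7269, 7633, 5987 and 6762 TPM in medial replicates 1 to 5. Lateral replicates 1 to 3 exceeded every medial library and lateral replicates 4 and 5 lay within the medial range. The log2 fold change was 0.36 (95% interval -0.06 to 0.78, limma adjusted p = 0.411), and 0.22 without lateral replicate 3. Means were 21488 ± 3675 TPM in lateral libraries and 19923 ± 2965 TPM in medial libraries for mt-Nd1, and 13636 ± 1848 TPM in lateral libraries and 12395 ± 1509 TPM in medial libraries for mt-Nd4. Lower still were mt-Nd2 (9183 ± 1873 TPM in lateral libraries, 7912 ± 739 TPM in medial libraries) and mt-Nd3 (7832 ± 1800 TPM in lateral libraries, 6781 ± 638 TPM in medial libraries). mt-Nd6, the only mRNA of the minus strand, was at 7047 ± 1776 TPM in lateral libraries and 5726 ± 1206 TPM in medial libraries, and it overlaps mt-Nd5 on the other strand. Lateral replicate 3 was the highest of all 10 libraries for all 7 of these genes, mt-Nd5 included, and their summed share there was 10.02% against 6.62% to 7.26% in the other lateral libraries and 5.73% to 7.63% in medial libraries. Medial replicate 4 was the lowest of 10 for 9 of the 13 mitochondrial mRNAs.

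The ribosomal RNAs were the most abundant members and the most uneven of the long mitochondrial genes. The large rRNA gene mt-Rnr2 was at 65173, 51968, 52372, 93267 and 104396 TPM in lateral replicates 1 to 5, against 84055, 86469, 53672, 64234 and 32037 TPM in medial replicates 1 to 5. The small rRNA gene mt-Rnr1 was at 28797, 24494, 19602, 46057 and 55386 TPM in lateral replicates 1 to 5, against 38407, 43360, 19971, 28410 and 11066 TPM in medial replicates 1 to 5. Both were high in lateral replicates 4 and 5 and in medial replicates 1 and 2, and lowest in medial replicate 5, so libraries of both regions lay on either side. Their highest library was 3.26 times the lowest for mt-Rnr2 and 5.01 times for mt-Rnr1, compared with 1.22 times for mt-Co1. Log2 fold changes were 0.22 (95% interval -0.51 to 0.95) for mt-Rnr2 and 0.35 (-0.51 to 1.21) for mt-Rnr1. Single libraries set both: without medial replicate 5 they were -0.0075 for mt-Rnr2 and 0.052 for mt-Rnr1, and without medial replicate 2 they were 0.35 and 0.54. The ratio of summed rRNA to summed mRNA was 0.370 to 0.983 in lateral and 0.257 to 0.804 in medial libraries.

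Mitochondrial DNA is transcribed from both strands as long precursors, and the tRNAs between the other genes are where these are cut. The tRNA genes are 59 to 75 bases long, so TPM divides by a very short length, and unprocessed precursors cannot be told from mature tRNA in these values. The 6 printed here were chosen after their values were seen, because 5 of them split the libraries in a way that is not the region and the sixth lies between a pair of those yet was nearly absent. Sequences are from GENCODE M21 on GRCm38, 5′ to 3′ on the gene's strand, with the anticodon, placed by the pairing of the stem around it, in capitals. mt-Th (chrM:11546-11612, plus strand) is the histidine tRNA gene, mt-Ts2 (chrM:11613-11671, plus) a serine tRNA gene and mt-Tl2 (chrM:11671-11741, plus) a leucine tRNA gene. mt-Td (chrM:6942-7011, plus) reads aspartate codons, mt-Tk (chrM:7700-7764, plus) lysine codons, and mt-Ts1 (chrM:6870-6938, minus strand) is the other serine tRNA gene and overlaps the end of mt-Co1 on the opposite strand.
mt-Th: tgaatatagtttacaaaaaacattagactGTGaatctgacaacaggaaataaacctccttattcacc
mt-Ts2: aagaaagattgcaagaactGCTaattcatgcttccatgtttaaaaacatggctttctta
mt-Tl2: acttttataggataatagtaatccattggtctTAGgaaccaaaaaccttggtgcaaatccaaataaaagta
mt-Td: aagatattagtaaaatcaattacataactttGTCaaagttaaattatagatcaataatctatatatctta
mt-Tk: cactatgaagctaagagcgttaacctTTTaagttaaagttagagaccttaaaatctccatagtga
mt-Ts1: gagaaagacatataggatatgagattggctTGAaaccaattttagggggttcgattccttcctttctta

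The histidine tRNA gene mt-Th was at 207, 364, 2586, 1784 and 281 TPM in lateral replicates 1 to 5, against 259, 2511, 2744, 2249 and 363 TPM in medial replicates 1 to 5. The leucine tRNA gene mt-Tl2 was at 242, 414, 2997, 1971 and 217 TPM in lateral replicates 1 to 5, against 202, 2706, 2908, 2751 and 368 TPM in medial replicates 1 to 5. Lateral replicates 3 and 4 and medial replicates 2, 3 and 4 were high, the other 5 libraries were low, and no library lay between. The same 5 libraries were the high ones for mt-Td, at 1121 to 1797 TPM against 248 to 364 TPM in the other 5, for mt-Tk, at 1317 to 1873 TPM against 310 to 524 TPM, and for mt-Ts1, at 181 to 375 TPM against 46.0 to 84.6 TPM. This split is not that of AY036118, whose 2 low libraries, lateral replicate 5 and medial replicate 2, fell on different sides of it. The high group held 2 lateral and 3 medial libraries, and the fold changes between regions had wide intervals. For mt-Th it was -0.78 (95% interval -2.54 to 0.98, limma adjusted p = 0.693).

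mt-Ts2, which begins at the base after mt-Th ends and shares its last base with mt-Tl2, did not follow them. It was at 5.06, 3.15, 3.31, 2.78 and 3.67 TPM in lateral replicates 1 to 5, against 40.9, 3.79, 5.71, 4.29 and 2.84 TPM in medial replicates 1 to 5, so medial replicate 1, low for both neighbours, was its highest library. It was the least abundant mitochondrial gene (mean 7.55 TPM), far under the 22 tRNA genes' median of 976 TPM. The mRNA that follows mt-Tl2, mt-Nd5, had the same 5 libraries on top by a narrower margin: 6547, 6552, 9792, 8836 and 6152 TPM in lateral replicates 1 to 5, against 6044, 9280, 9033, 7509 and 5248 TPM in medial replicates 1 to 5. Its log2 fold change between regions was 0.04 (95% interval -0.43 to 0.51).

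Across the 22 tRNA genes, 14 had positive and 8 negative log2 fold changes, from -0.78 to 0.49, and 0 reached an unadjusted p of 0.05 in limma. Lateral replicate 3 was the highest of the 10 libraries for 17 of the 22. In mt-Tl1, a leucine tRNA gene that follows the rRNAs, it held 8349 TPM against 1363 to 1644 TPM in the other lateral and 1693 to 2500 TPM in the medial libraries. The first gene after the control region, mt-Tf, was at 90.4 TPM in medial replicate 5 and at 370 to 847 TPM in the other 9. Medial replicate 5 was the lowest of 10 for 8 of the 22.

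**Figure D2:**
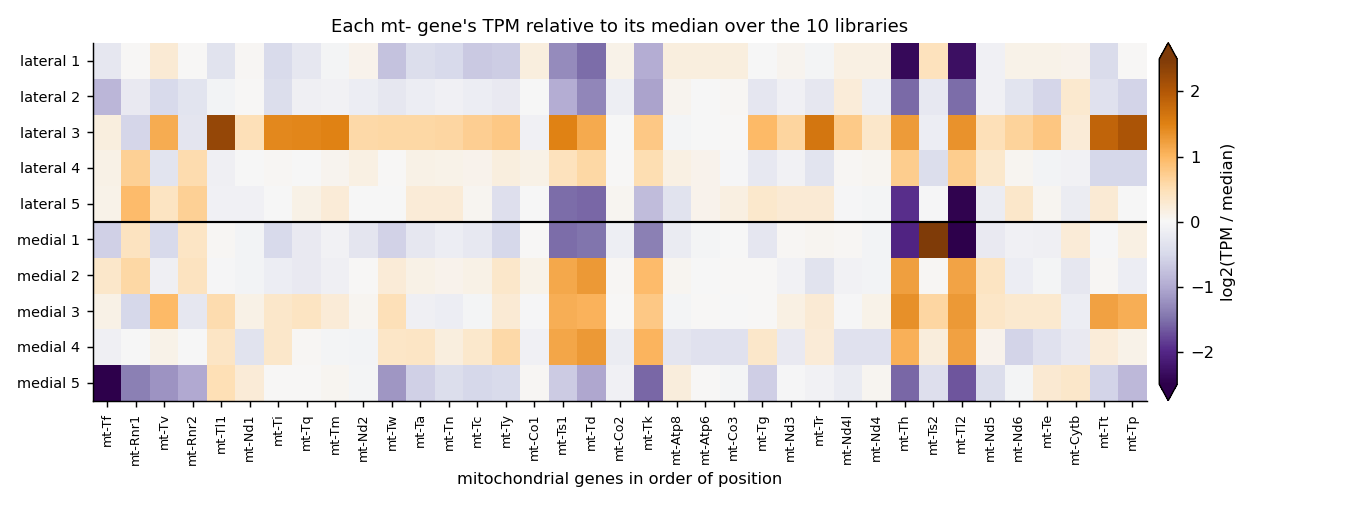
Heat map of the 37 mitochondrial genes (horizontal axis, in order of position) by library (rows, lateral above medial), coloured by log2 of TPM over the gene's median in the 10 libraries; values beyond 2.5 in size take the end colours. mt-Th and mt-Tl2 are low in lateral replicates 1, 2 and 5 and medial replicates 1 and 5, mt-Ts2 between them is high in medial replicate 1 (40.9 TPM), and lateral replicate 3 is high over most tRNA genes.

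Nuclear members were far below the mitochondrial mRNAs. The 92 protein-coding ones, 84 subunits or close relatives and 8 assembly factors of complex I, took 2.54 ± 0.231% of TPM in lateral libraries and 2.45 ± 0.313% in medial libraries. Rescaled without mt- genes these were 3.75 ± 0.454% in lateral and 3.42 ± 0.320% in medial libraries. Fold changes were small: of 89 tested, 39 were positive and 50 negative, with a median of -0.03, against -0.10 for the 1529 nuclear protein-coding genes whose mean reached 50 TPM. After rescaling, 50 were positive and 39 negative with a median of 0.04, against -0.03 for those 1529. The direction of the group as a whole therefore depended on the scaling, and on the deposited scale it was 0.04 without medial replicate 5, the library with the highest nuclear share. Cox7a1, Cox8b and Ndufa4l2 were under the filter of 1 TPM in 5 libraries and were not tested.

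How small a difference could be seen was set by the spread. The 95% interval of the log2 fold change lay within a 2-fold change either way for 82 of the 89 genes and within 1.5-fold for 53. The median residual SD on the log2 scale was 0.25 for nuclear members, 0.22 for mitochondrial mRNAs, 0.31 for the nuclear protein-coding genes of at least 50 TPM, and 0.55 for all genes tested. Cytosolic ribosomal protein genes, another abundant housekeeping group, had a median log2 fold change of 0.02 with 0 of 93 called (6 at an unadjusted p under 0.05, limma). Medial replicate 5 was the highest of the 5 medial libraries for 70 of the 92 nuclear members. Lateral replicate 5, which nearly lacked AY036118, was the highest lateral one for 41. Medial replicate 2, which nearly lacked AY036118 too, was the highest medial one for 5 and the lowest medial one for 21. Fewer cells of a type and less RNA per cell cannot be told apart in these captured pieces.

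**Figure D3:**
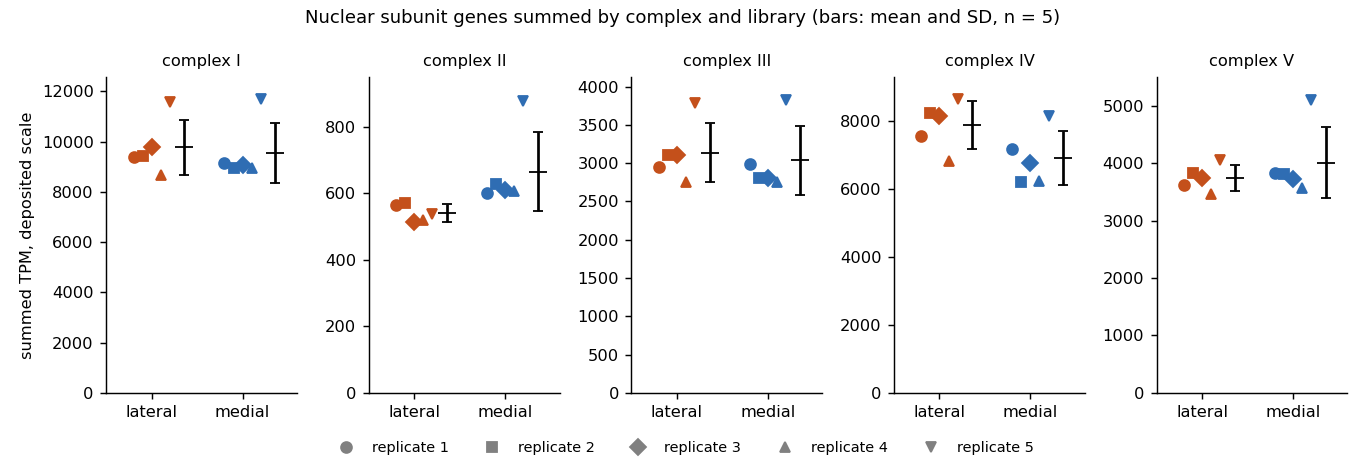
Summed TPM of the nuclear subunit genes of each complex (vertical axes start at 0) by library, with symbols for replicate numbers, lateral left of medial, and bars for mean and SD. Complex II is the panel in which the regions do not overlap (513 to 572 TPM lateral, 602 to 878 TPM medial), and replicate 5 is the highest library of its region for complexes I, III, IV and V.

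The 4 subunits of complex II, succinate dehydrogenase, which also belongs to the tricarboxylic acid cycle, all had negative fold changes (median -0.30, and -0.20 without medial replicate 5) and none passed. Their summed level was 566, 572, 513, 519 and 538 TPM in lateral replicates 1 to 5, against 602, 628, 611, 608 and 878 TPM in medial replicates 1 to 5. Every lateral library was below every medial one in this sum on the deposited scale. None of the 4 genes separated the regions by itself. Of all genes tested, 3.39% separated in this direction, but that share is for single genes and gives no background for a sum. After rescaling without mt- genes the sums were 776 to 832 TPM in lateral libraries and 831 to 1148 TPM in medial libraries, and lateral replicate 5 (831.8 TPM) and medial replicate 4 (831.1 TPM) then overlapped. Lateral replicate 5 nearly lacked AY036118, which this rescaling did not take out, so its place among the lateral libraries is uncertain.

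Sdha, the flavoprotein that oxidizes succinate, was at 168, 154, 111, 145 and 123 TPM in lateral replicates 1 to 5, against 150, 183, 179, 162 and 236 TPM in medial replicates 1 to 5. Only lateral replicates 1 and 2 reached the medial range. The log2 fold change was -0.38 (95% interval -0.73 to -0.02, limma adjusted p = 0.301). Sdhd, a membrane anchor, was at 126, 152, 172, 108 and 152 TPM in lateral replicates 1 to 5, against 206, 167, 152, 170 and 284 TPM in medial replicates 1 to 5. Its regions overlapped, and its log2 fold change was -0.44 (-0.86 to -0.03, adjusted p = 0.292). The iron-sulphur subunit Sdhb was at 203 ± 16.8 TPM in lateral libraries and 219 ± 30.4 TPM in medial libraries (-0.11), and the other anchor, Sdhc, at 56.8 ± 6.05 TPM in lateral libraries and 68.0 ± 14.9 TPM in medial libraries (-0.23). Under median-ratio scaling Sdhb had 0.11, so the shared sign of the 4 genes depended on the scaling.

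Complex I, the NADH dehydrogenase, has a nuclear core that carries the flavin and the iron-sulphur clusters, surrounded by accessory subunits. Ndufs8, a core subunit gene, was at 206 ± 32.6 TPM in lateral libraries and 250 ± 23.9 TPM in medial libraries (-0.29, 95% interval -0.60 to 0.03, limma adjusted p = 0.375). Over the 37 genes of the complex tested, 13 were positive and 24 negative on the deposited scale, and 22 positive and 15 negative after rescaling. Leaving out lateral replicate 5 took the deposited median of -0.05 to -0.10, and leaving out medial replicate 5 took it to 0.02, so its sign rested on single libraries. All 37 intervals lay within a 2-fold change either way.

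Ndufa1, a small X-linked accessory subunit needed to assemble the complex, was the most abundant nuclear gene of complex I. It was at 1478, 1610, 1799, 1524 and 1979 TPM in lateral replicates 1 to 5, against 1521, 1257, 1007, 1224 and 1317 TPM in medial replicates 1 to 5. Medial replicate 1 lay between lateral replicates 1 and 4, and the other 4 medial libraries lay below all lateral ones. The log2 fold change of 0.41 (95% interval 0.08 to 0.74) stayed above the threshold (limma adjusted p = 0.224, and 0.215 after rescaling).

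Ndufab1, the mitochondrial acyl carrier protein, was at 31.5, 29.5, 27.3, 36.2 and 31.0 TPM in lateral replicates 1 to 5, against 39.6, 32.3, 44.6, 45.0 and 48.4 TPM in medial replicates 1 to 5. Only lateral replicate 4 and medial replicate 2 crossed. Its log2 fold change was -0.41 (-0.78 to -0.05, limma adjusted p = 0.268). The processed pseudogene Ndufab1-ps had nearly the same levels, 32.7 TPM in lateral libraries and 41.5 TPM in medial libraries on average, so reads may be divided between these copies and the values of both are uncertain.

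The pair Ndufa4 and Ndufa4l2 was counted with complex I by symbol, although Ndufa4 is now placed in complex IV. Ndufa4 was at 469 ± 138 TPM in lateral libraries and 423 ± 50.5 TPM in medial libraries (0.11). Ndufa4l2, known as its hypoxia-induced relative, was listed at 0 in lateral replicates 1 and 2 and medial replicates 2 to 5, and at 3.77 to 6.47 TPM in the other lateral libraries and 8.64 TPM in medial replicate 1. Of the 8 assembly factors 4 were positive and 4 negative. Ndufaf2, which attaches to a late assembly intermediate, was at 73.9 ± 12.1 TPM in lateral libraries and 59.9 ± 12.7 TPM in medial libraries (0.31). Ndufaf8, the most abundant, was at 82.5 ± 14.7 TPM in lateral libraries and 71.4 ± 12.6 TPM in medial libraries (0.21). Its partner Ndufaf5, which hydroxylates a core subunit, was at 34.0 ± 8.75 TPM in lateral libraries and 44.1 ± 7.61 TPM in medial libraries (-0.39). The methyltransferase gene Ndufaf7 was at 16.1 ± 6.002 TPM in lateral libraries and 21.6 ± 7.83 TPM in medial libraries (-0.39). None passed in limma (adjusted p from 0.425 upward among the 8).

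Complex III, the cytochrome bc1 complex, was evenly split, with 4 of 8 nuclear genes positive and a median of -0.013. Leaving out single libraries gave medians from -0.065 (without medial replicate 4) to 0.11 (without medial replicate 5). Its Rieske iron-sulphur protein gene Uqcrfs1 was at 213, 209, 165, 204 and 269 TPM in lateral replicates 1 to 5, against 244, 240, 278, 289 and 369 TPM in medial replicates 1 to 5. All but lateral replicate 5 lay below the medial range. The log2 fold change was -0.42 (95% interval -0.78 to -0.06, limma adjusted p = 0.251). The core protein gene Uqcrc2 was at 92.4, 124, 102, 141 and 140 TPM in lateral replicates 1 to 5, against 139, 184, 139, 128 and 206 TPM in medial replicates 1 to 5 (-0.40, adjusted p = 0.314). Its ranges overlapped in the top lateral and lowest medial libraries. Uqcr11, a small accessory subunit and the most abundant of the 8, was at 850 ± 129 TPM in lateral libraries and 726 ± 123 TPM in medial libraries (0.23, adjusted p = 0.527).

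Complex IV, cytochrome c oxidase, was the group with mostly positive values: 11 of 15 genes tested, with a median of 0.15. After rescaling it had 12 of 15, with a median of 0.22. All genes tested had medians of -0.21 and -0.15. Abundant genes lay higher: the 1529 nuclear protein-coding genes of at least 50 TPM had -0.10 and -0.03. Those of at least 200 TPM had -0.025 on the deposited scale. The deposited median was 0.052 without medial replicate 1, 0.067 without lateral replicate 2, 0.069 without lateral replicate 5 and 0.094 without medial replicate 5. Rescaled, leaving out lateral replicate 5 gave 0.12, and leaving out medial replicate 1 or 5 gave 0.14. The summed level of its nuclear genes was 7553, 8253, 8142, 6836 and 8643 TPM in lateral replicates 1 to 5, against 7169, 6220, 6769, 6226 and 8137 TPM in medial replicates 1 to 5. Lateral replicate 4 lay among the medial libraries, and medial replicate 5 among the lateral ones. None of its genes passed.

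Cox6a1, the regulatory subunit isoform of most tissues, was at 1548, 1807, 1830, 1470 and 1801 TPM in lateral replicates 1 to 5, against 1460, 1119, 1256, 1166 and 1608 TPM in medial replicates 1 to 5. Only medial replicate 5 reached the lateral range on this scale, and after rescaling no medial library did. The log2 fold change was 0.36 (95% interval 0.04 to 0.69, limma adjusted p = 0.272) and 0.44 after rescaling (0.11 to 0.77, adjusted p = 0.218). Cox8a, the most abundant nuclear member, was at 1991 ± 277 TPM in lateral libraries and 1709 ± 334 TPM in medial libraries (0.23). Cox6c was at 314 ± 66.1 TPM in lateral libraries and 255 ± 47.2 TPM in medial libraries (0.30), and Cox5b at 467 ± 30.5 TPM in lateral libraries and 409 ± 61.8 TPM in medial libraries (0.20). Cox6c has an antisense neighbour, Vps13b, and a processed pseudogene, Cox6c2, so its reads may be divided. Antisense genes also overlap Sdha, Ndufab1, Ndufaf2, Ndufa4l2, Uqcrc2, Cox4i1 and Cox6a2, and without strand their reads cannot be told apart.

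Isoform pairs of complex IV showed the forms known from most tissues at high levels and the forms known from muscle, lung or testis at low levels or listed at 0. Cox4i1 was at 763 ± 165 TPM in lateral libraries and 680 ± 95.6 TPM in medial libraries, while Cox4i2, known from lung and from low oxygen, was at 0 to 13.3 TPM in lateral libraries and 2.96 to 9.38 TPM in medial libraries. The muscle form Cox6a2 was at 7.08, 16.8, 47.7, 9.51 and 47.9 TPM in lateral replicates 1 to 5, against 24.6, 8.07, 43.2, 32.0 and 22.6 TPM in medial replicates 1 to 5, with overlapping ranges. Cox6b1 was at 856 ± 138 TPM in lateral libraries and 773 ± 116 TPM in medial libraries (0.15). Its testis form Cox6b2 was at 0 to 1.83 TPM in lateral libraries and 0 to 3.14 TPM in medial libraries. Cox7a2 was at 652 ± 89.6 TPM in lateral libraries and 649 ± 70.0 TPM in medial libraries (0.0021). Of the muscle forms, Cox7a1 was listed at 0 in 3 lateral and 3 medial libraries and reached 3.83 TPM, and Cox8b was listed at 0 in 2 lateral and 4 medial libraries and reached 6.28 TPM.

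Complex V, the ATP synthase, had 7 positive and 10 negative values (median -0.08, and -0.0046 after rescaling). The deposited median was -0.0031 without medial replicate 5 and -0.11 without medial replicate 4, and the rescaled one turned to 0.056 without lateral replicate 2. Atp5b, the catalytic beta subunit and the most abundant, was at 523 ± 56.6 TPM in lateral libraries and 637 ± 121 TPM in medial libraries (-0.27, 95% interval -0.61 to 0.06, limma adjusted p = 0.431). The rotating gamma subunit gene Atp5c1 was at 329 ± 37.4 TPM in lateral libraries and 381 ± 68.3 TPM in medial libraries (-0.20, and 0.01 under median-ratio scaling). Atp5g1, Atp5g2 and Atp5g3 encode the same mature c subunit of the membrane ring behind different import sequences. Atp5g3 led at 220.0 ± 8.62 TPM in lateral libraries and 219 ± 20.3 TPM in medial libraries (0.0086, -0.26 to 0.28), followed by Atp5g2 at 154 ± 10.8 TPM in lateral libraries and 169 ± 35.5 TPM in medial libraries (-0.11) and Atp5g1 at 78.3 ± 9.14 TPM in lateral libraries and 81.4 ± 16.3 TPM in medial libraries (-0.04). The pseudogene Atp5k-ps2 was at 22.6 ± 4.59 TPM in lateral libraries and 17.5 ± 10.49 TPM in medial libraries (0.53, adjusted p = 0.523). It and the other 8 noncoding or pseudogene members had 6 positive and 3 negative values in all. All but Ndufb1-ps are annotated as processed pseudogenes, which share sequence with coding members, so their values are uncertain. Ndufb1-ps is annotated as a noncoding RNA, no coding Ndufb1 was among the members, and how its reads were assigned is not known.

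**Figure D4:**
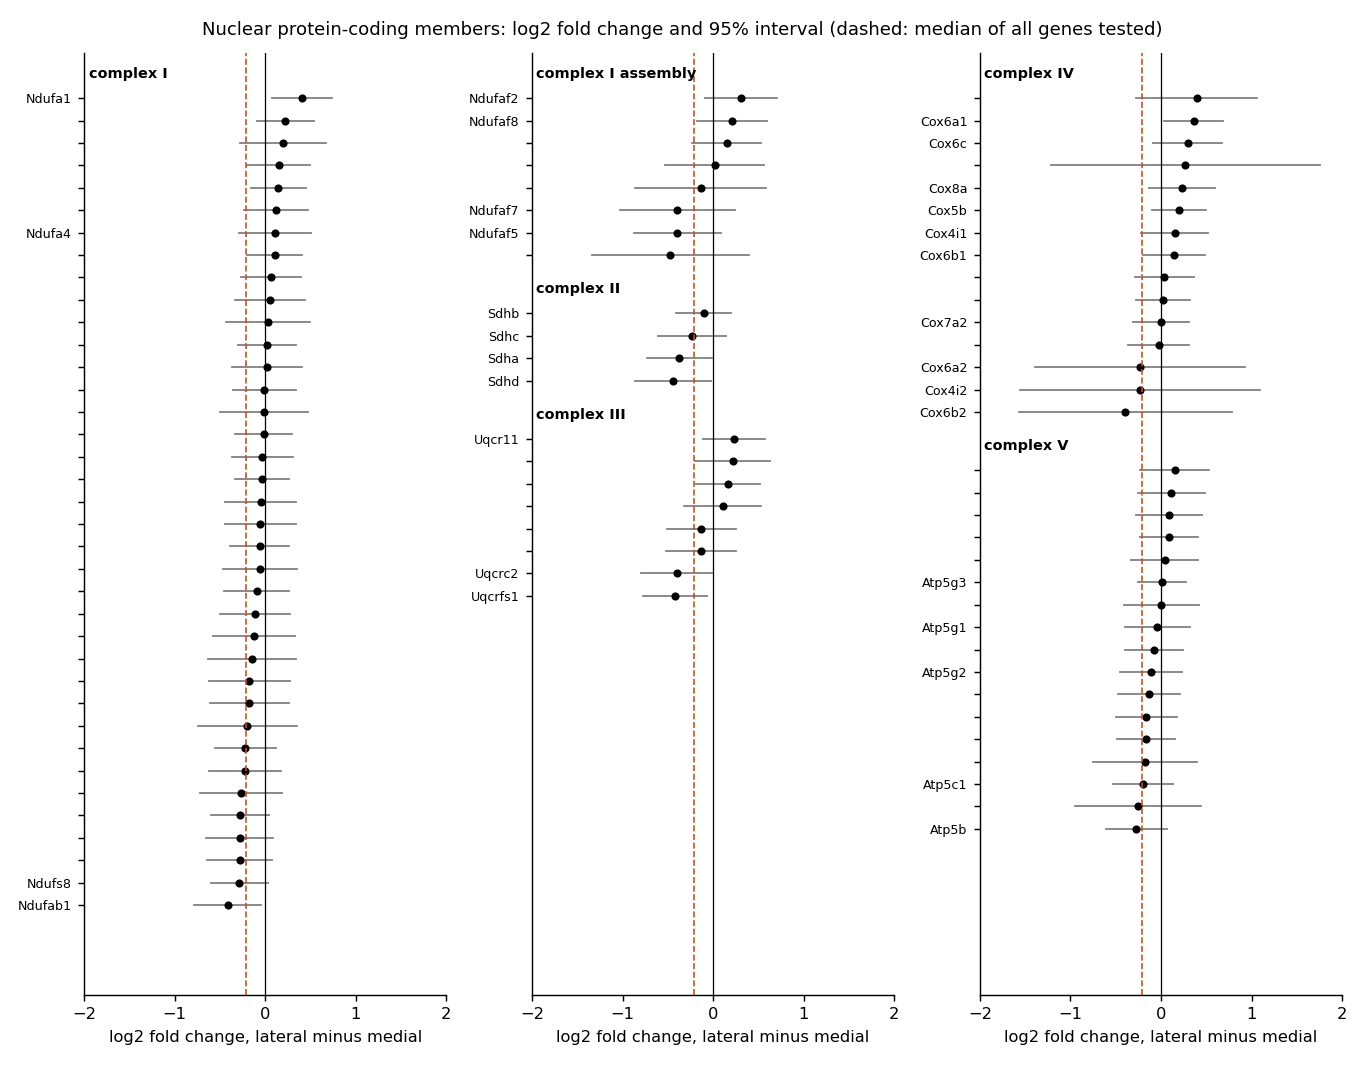
Log2 fold change, lateral minus medial (horizontal axis), of the 89 nuclear protein-coding members tested, with 95% intervals, grouped by complex and sorted, with symbols for the genes named in the text; the dashed line is the median of all genes tested (-0.21) and the solid line is 0. Points run from -0.47 to 0.41 and most lie right of the dashed line, all 4 complex II genes lie left of 0, and most of complex IV lies right of it.

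The mitochondrial and nuclear mRNAs of a complex can be set against each other within a library. The mean mitochondrial mRNA of complex I stood at 42.6 ± 8.65 times the mean nuclear subunit mRNA in lateral and 38.5 ± 5.26 times in medial libraries. The ratio was 45.7 ± 8.68 in lateral and 44.1 ± 5.32 in medial libraries for complex III, 48.0 ± 5.99 in lateral and 51.6 ± 6.14 in medial libraries for complex IV, and 29.3 ± 4.03 in lateral and 25.6 ± 2.54 in medial libraries for complex V. The ranges of the regions overlapped for all 4 ratios. The nuclear mean was taken over every subunit gene assigned by symbol. For complex IV it includes isoforms at very low levels, such as Cox6b2, Cox7a1 and Cox8b, and for complex I it includes Ndufa4. Ratios therefore compare regions within a complex and do not rank the complexes.

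Fold change was also set beside gene length. Spearman's rho between exon length and log2 fold change was -0.27 over the 89 genes and -0.08 over the 11724 nuclear protein-coding genes tested, given as descriptions across genes of the same libraries. The 21 members with under 1000 exonic bases had a median of 0.05, against -0.05 for all 269 such nuclear protein-coding genes tested. Nuclear-retained RNAs, listed as a possible sign of the nuclear share of the RNA, had negative values for 5 of 5 genes (median -0.81). In limma 0 were called and 3 had an unadjusted p under 0.05. Malat1, the most abundant of the 5, had -0.30. Of all 15596 genes tested, 10712 were negative, 1.48% were called and 15.4% had an unadjusted p under 0.05. The part of cell composition, RNA composition and length in these values and the members' values was not tested.

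Many nuclear genes of the respiratory chain carry sites for NRF-1, for the ETS factor GABP (NRF-2) and for YY1 near their starts. Of the 92 nuclear protein-coding members 74 matched RefSeq's promoter table (GRCm38.p6, 250 bases before to 50 after the gene start). The NRF-1 motif (GCGC, any base, then TGCGC), searched on both strands as were the others, was in 25.7% of the 74, against 11.1% of the 10248 protein-coding genes of the expression table with a promoter and 5.19% of all 27025 promoters. The ETS motif CCGGAAG was in 24.3% of the 74, 18.8% and 9.93%, and the YY1 motif AAGATGGC in 13.5%, 5.11% and 3.19%. An ETS and a YY1 motif can share the bases AAG. At least 1 of the 3 motifs was in 54.1% of the 74, 30.7% of the 10248 and 16.4% of all promoters. The sites shown are NRF-1 motifs upstream of genes described above for their fold changes, Cox6a1 with a positive one and Sdha and Sdhd with negative ones, in capitals between flanking bases, 5′ to 3′ on the minus strand, on which all 3 genes lie. They are chr5:115349046-115349095 and chr5:115349091-115349140 for Cox6a1, chr13:74350266-74350315 and chr13:74350309-74350358 for Sdha, and chr9:50603899-50603948 for Sdhd. Positions are those of the motif's start, counted from the gene start. Another NRF-1 match of Sdha, at -10 (chr13:74350221-74350270), is not shown. The fold changes of Cox6a1, Sdha and Sdhd did not pass. Ndufa1, Ndufab1, Uqcrfs1 and Uqcrc2, like them under an unadjusted p of 0.05 in limma, had no match of the 3 motifs listed. Whether these genes had a promoter entry is not given here. A match describes the letters of the window, not binding, and a link between motifs and fold changes was not tested.
Cox6a1, at -117: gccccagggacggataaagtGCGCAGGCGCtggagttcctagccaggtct
Cox6a1, at -162: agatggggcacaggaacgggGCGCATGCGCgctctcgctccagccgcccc
Sdha, at -55: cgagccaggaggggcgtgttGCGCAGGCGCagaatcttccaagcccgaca
Sdha, at -98: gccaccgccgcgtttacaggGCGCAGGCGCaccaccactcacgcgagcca
Sdhd, at -79: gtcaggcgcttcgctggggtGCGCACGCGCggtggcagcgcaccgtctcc

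Genes around the pathway were also uncalled in limma: of 123 tested in 13 lists, 0 passed and 16 had an unadjusted p under 0.05, where 1.48% and 15.4% of all genes tested did. The regulators of mitochondrial biogenesis had 8 of 9 negative values (median -0.41, 0 called). Among them Nrf1 was at 5.08 TPM in lateral libraries and 7.12 TPM in medial libraries on average (limma adjusted p = 0.561), Gabpa at 4.55 TPM in lateral libraries and 6.62 TPM in medial libraries (0.927), and Yy1 at 14.6 TPM in lateral libraries and 17.1 TPM in medial libraries (0.703). The tricarboxylic acid cycle, which supplies NADH and succinate, had 13 of 14 negative values (median -0.26, 0 called), and after rescaling 13 of 14 (median -0.19). Glycolysis genes had 13 of 16 negative (median -0.10), and 10 of 16 after rescaling. Mitochondrial DNA replication and transcription genes had 9 of 14 negative (median -0.09), and mitochondrial RNA processing and stability genes 12 of 16 (median -0.13). Assembly factors outside the symbol rule had 5 of 7 negative for complex I, 3 of 4 for complex II, 2 of 6 for complex III and 11 of 19 for complex IV. The 5 assembly and inhibitor genes of complex V had 3 negative. Carriers and porins tied to ATP export had 6 of 8 negative, the cytochrome c gene Cycs and its haem lyase gene Hccs 2 of 2, and uncoupling proteins 2 of 3. After rescaling, 8 of 9 biogenesis regulators, 7 of 14 replication and transcription genes, 11 of 16 RNA processing genes and 4 of 8 carriers and porins were negative, as was 1 of the cytochrome c pair, and the assembly and uncoupling counts were the same. All these counts stand beside a median of -0.21 and 10712 negative values among the 15596 genes tested, and 10145 among 16012 after rescaling.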

How the data were processed

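The authors deposited TPM per gene and library, scaled to 1000000 per library. Named in the submitters' processing notes are featureCounts 1.6.3, StringTie 1.3.4, HISAT2 2.1.0, fastp 0.20.0 and the build GRCm38 (mm10). What each tool did, the gene annotation and the use of strand: not given in the sources used here. TPM keeps no depth, so no counting interval can be given.

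Groups were taken from the labels. The regions were compared with limma 3.58.1 (R 4.3.3; moderated linear model, mean-variance trend) on log2(TPM + 1), over all genes with at least 1 TPM in at least 5 of the 10 libraries, with Benjamini-Hochberg adjusted p under 0.05. The fit was repeated after mt- genes were removed and libraries rescaled to 1000000. Fold changes are on the log2(TPM + 1) scale, which understates low genes. The 84 subunit genes were assigned to complexes by symbol, and coordinates come from GENCODE M21. Scripts were tested on simulated data. The text names all mitochondrial mRNA and rRNA genes, the Sdh genes and isoform pairs, and per complex the most abundant gene and the 3 with the smallest p. The tRNA genes and list genes that did not pass were chosen after their values were seen. The members and lists were chosen with earlier results of these data known. Alternatives changed the pseudocount, filter, scaling, variance model, weights, replicate block and libraries.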

Additional observations from a re-analysis of the deposited data

Results flagged for a closer look

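The mitochondrial genes, the nuclear members named by rule and the summed values were examined in each region, and the other nuclear members were not. In 23 of these 180 groups of 5 values, the highest or lowest library lay further from the rest than Dixon's 95% critical value of 0.71 of the group's range. Chance flags about 1 in 20 such groups, and neighbouring genes share libraries, so these are not independent.

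Lateral replicate 3 was the high library in 11 of them. It held 27943 TPM of mt-Nd1 (18737 to 20612 TPM in the other lateral libraries) and 13275 TPM of mt-Nd4l (7551 to 9058 TPM). Among tRNA genes it held 9827 TPM of mt-Ti, 8349 TPM of mt-Tl1, 11824 TPM of mt-Tm, 2077 TPM of mt-Tp, 4878 TPM of mt-Tq, 12259 TPM of mt-Tr and 1654 TPM of mt-Tt. The tRNA genes together took 7.83% of its TPM (2.36% to 3.12% in the others), and the mitochondrial genes of complex I took 10.02% (6.62% to 7.26%).

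Medial replicate 4 was low in mt-Atp6 at 4348 TPM (5439 to 5691 TPM in the other medial libraries), in mt-Co3 at 17240 TPM (21534 to 22319 TPM) and in the share of all mitochondrial mRNAs at 13.7% (15.9% to 16.7%). Medial replicate 5 was high in nuclear members, with 3.00% of TPM (2.24% to 2.41% in the other medial libraries). Its nuclear sums were 11690 TPM for complex I, 878 TPM for complex II, 3828 TPM for complex III and 5104 TPM for complex V, and it held 511 TPM of Ndufa4 (388 to 411 TPM). Medial replicate 1 was high in mt-Ts2 at 40.9 TPM (2.84 to 5.71 TPM) and in Ndufa4l2 at 8.64 TPM, where the other medial libraries were listed at 0. Medial replicate 3 held 1.74 TPM of Cox8b, listed at 0 in the other medial libraries.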

How the results depend on the processing

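No member was called in any of 44 alternatives (23 on the deposited scale, 21 rescaled without mt- genes), and the smallest adjusted p of a member was 0.0766, for Cox6a1 under median-ratio scaling. The number of all genes called moved more. Instead of 231 on the deposited scale it was 149 with a pseudocount of 0.1, 145 without a mean-variance trend, and 53 without lateral replicate 5 and medial replicate 2. Instead of 204 after rescaling it was 131, 107 and 44. Leaving out single libraries gave 84 to 257 and 61 to 215 genes. On the deposited scale the count was over 1.5 times smaller when a single library was left out, with 135, 149, 124 and 114 genes for lateral replicates 1, 2, 4 and 5 and 84, 111, 92 and 100 genes for medial replicates 2 to 5. After rescaling the same libraries gave 112, 104, 116 and 106 genes (lateral) and 61, 89, 62 and 91 genes (medial).

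Labels give both regions replicates 1 to 5. Deviations of libraries with the same number correlated at -0.053, 0.042, -0.0083, -0.0038 and -0.014, so no pairing by number was seen. Spread between single libraries can hide a shared animal or batch, so these values cannot decide whether the numbers pair the libraries. A replicate block gave 64 genes on the deposited scale and 54 after rescaling, with 0 members, and no library correlated best with its own number.

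Scaling moved directions. Median-ratio scaling took the median of all genes from -0.21 to -0.02, that of nuclear protein-coding members to 0.18 and that of mitochondrial mRNAs to 0.35. It gave 88 calls higher and 82 lower in lateral, and quantile normalization gave 86 and 100, against 60 and 171 in the deposited values. Signs turned for Atp5c1 (0.011), Atp5g1 (0.17), Atp5g2 (0.10) and Sdhb (0.11) under median-ratio scaling. Under quantile normalization they turned for Atp5g1 (0.061), mt-Atp6 (-0.11), mt-Atp8 (-0.14), mt-Co1 (-0.054), mt-Co2 (-0.0545), mt-Nd3 (-0.018), mt-Nd4 (-0.057) and mt-Nd5 (-0.23). Sample weights gave -0.011 for Cox7a2, and rescaling without mt- and haemoglobin genes gave 0.031 for Atp5g1. Without lateral replicate 5 and medial replicate 2, Atp5g3 had -0.048, Cox7a2 -0.11, mt-Tk 0.11, Cox6a2 -0.90 and mt-Co1 0.073. Over single libraries left out, the range crossed 0 for Atp5g1 (-0.10 to 0.065), Atp5g3 (-0.032 to 0.057), Cox4i2 (-0.61 to 0.35), Cox6a2 (-0.58 to 0.11), Cox7a2 (-0.066 to 0.059), Ndufa4 (-0.042 to 0.20), mt-Atp8 (-0.0011 to 0.15), mt-Co1 (-0.0010 to 0.069), mt-Nd5 (-0.078 to 0.13) and mt-Rnr2 (-0.0075 to 0.35), and it was -0.65 to -0.0016 for mt-Tk. The cause was not tested.

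TPM cannot show whether the amount of mitochondrial RNA per cell differed, and depth is unknown.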
